A study of Mus musculus with 8 samples.

Results

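The 7 genes Elane, Prtn3, Mpo, Ctsg, Ms4a3, Prss57 and Cst7, all of them abundant in the cells that build the primary (azurophil) granules of neutrophils, were measured by single-cell RNA sequencing of mouse tibia at postnatal day 56 (8 weeks). They were chosen by name, and all 7 of them are among the 31053 genes of the deposited mouse matrix. The mice carried 1 floxed allele of Mmp14 (MMP14 F/+), Cre under Col10a1 (COL10A1cre), which acts in hypertrophic chondrocytes, a Cre-dependent tdTomato reporter at Rosa26 (R26-tdT), and GFP under an osteoblast promoter fragment of Col1a1 (Col1a1-2.3-GFP). Neither Cre nor GFP is directed at blood cells, and no mice of another genotype, age or treatment were compared. Cells released from trabecular bone, with some growth plate, were pooled from 3 mice, early digests rich in blood were discarded and the suspension was enriched for tdTomato, so that the blood cells described here are those that remained, and their numbers do not give their shares in marrow. The 8 labelled samples form 1 group, their barcodes carry no mark of sample or mouse, and all 12564 barcodes are distinct. They are therefore 1 sample, and no test, SE or p-value was computed.

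Neutrophils are made in bone marrow from progenitors shared with monocytes, and their granules are filled in sequence. Primary granules are filled at the promyelocyte stage with serine proteases and myeloperoxidase, secondary granules at the myelocyte and metamyelocyte stages with lactoferrin and other proteins, and tertiary granules later. A granule's content is thus set largely by which genes are transcribed while that granule forms, and blood neutrophils carry the proteases with little of their mRNA. Elane encodes neutrophil elastase, Prtn3 proteinase 3 and Ctsg cathepsin G, 3 serine proteases of the granule. Mpo encodes myeloperoxidase, which makes hypochlorous acid from hydrogen peroxide and chloride. Prss57 encodes a further serine protease (neutrophil serine protease 4), Ms4a3 a membrane protein that marks granulocyte and monocyte progenitors, and Cst7 cystatin F, an inhibitor of lysosomal cysteine proteases such as cathepsin C, the enzyme that activates the granule proteases.

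In GENCODE M21 on GRCm38, the assembly of mm10, 3 of the genes lie on chromosome 10. Elane spans 79886247 to 79888215 on the plus strand and Prtn3 79874476 to 79883174 on the plus strand, with 3072 bases between them. Prss57 lies 83514 bases before Prtn3, at 79781474 to 79790961 on the minus strand. Mpo lies on chromosome 11 at 87793581 to 87804413, Ctsg on chromosome 14 at 56099881 to 56102574, Ms4a3 on chromosome 19 at 11629496 to 11640851 and Cst7 on chromosome 2 at 150570415 to 150578944. Every one of the 7 is protein coding. Prtn3 overlaps the start of Plppr3, Prss57 the end of Fstl3, and Mpo the antisense gene Gm11505, each on the opposite strand. Strand use in the counting is not stated in the labels or the study's methods.

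The promoters below, from 250 bases before to 50 bases after the RefSeq start on GRCm38.p6, are those of the 6 genes matched in the RefSeq table, shown because the closest matches of each of them across barcodes were other members of the set. Capitals mark the letters AGGAAGT or their reverse complement ACTTCCT, a core bound by ETS factors such as PU.1. They stand on the gene's own strand, and for Elane, Prtn3 and Mpo the RefSeq start lies after the start of the GENCODE gene. Prss57 was not matched.
Elane, chr10:79886062-79886361, plus strand: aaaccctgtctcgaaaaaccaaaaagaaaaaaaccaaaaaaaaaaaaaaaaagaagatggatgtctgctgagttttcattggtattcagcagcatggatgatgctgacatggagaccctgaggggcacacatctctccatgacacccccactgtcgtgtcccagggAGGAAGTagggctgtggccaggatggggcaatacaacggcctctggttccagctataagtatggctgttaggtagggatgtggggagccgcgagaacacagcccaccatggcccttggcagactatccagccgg
Prtn3, chr10:79879417-79879716, plus strand: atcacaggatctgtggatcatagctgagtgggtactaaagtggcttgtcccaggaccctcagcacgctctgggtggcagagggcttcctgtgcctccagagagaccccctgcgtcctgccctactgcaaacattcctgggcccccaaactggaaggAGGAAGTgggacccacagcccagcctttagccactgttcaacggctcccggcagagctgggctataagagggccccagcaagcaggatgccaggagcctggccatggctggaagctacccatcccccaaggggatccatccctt
Mpo, chr11:87793534-87793833, plus strand: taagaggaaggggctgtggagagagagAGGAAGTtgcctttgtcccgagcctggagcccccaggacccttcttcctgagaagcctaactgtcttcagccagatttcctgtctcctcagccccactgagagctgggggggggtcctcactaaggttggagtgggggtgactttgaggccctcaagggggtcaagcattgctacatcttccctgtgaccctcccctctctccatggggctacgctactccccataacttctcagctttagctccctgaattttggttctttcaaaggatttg
Ctsg, chr14:56102525-56102824, minus strand: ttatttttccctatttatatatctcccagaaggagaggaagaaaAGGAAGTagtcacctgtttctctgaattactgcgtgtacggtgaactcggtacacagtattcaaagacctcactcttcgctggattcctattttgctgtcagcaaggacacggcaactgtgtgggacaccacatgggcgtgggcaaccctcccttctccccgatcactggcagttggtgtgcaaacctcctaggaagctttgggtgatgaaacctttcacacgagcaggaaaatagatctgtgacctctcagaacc
Ms4a3, chr19:11640802-11641101, minus strand: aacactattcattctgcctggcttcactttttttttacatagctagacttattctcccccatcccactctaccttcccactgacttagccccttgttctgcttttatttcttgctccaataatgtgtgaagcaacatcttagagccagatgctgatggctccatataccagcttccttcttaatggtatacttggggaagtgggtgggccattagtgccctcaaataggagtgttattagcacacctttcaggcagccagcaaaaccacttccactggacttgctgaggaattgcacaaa
Cst7, chr2:150570165-150570464, plus strand: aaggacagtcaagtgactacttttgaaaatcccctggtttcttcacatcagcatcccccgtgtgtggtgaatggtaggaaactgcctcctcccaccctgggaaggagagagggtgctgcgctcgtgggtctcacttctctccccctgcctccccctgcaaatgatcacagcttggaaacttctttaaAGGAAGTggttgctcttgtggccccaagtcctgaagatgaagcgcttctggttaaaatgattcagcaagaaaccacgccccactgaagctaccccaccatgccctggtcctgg

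These letters begin 84 bases before the start in Elane, 94 in Prtn3, 223 in Mpo, 206 in Ctsg and 63 in Cst7. They occur in 5 of the 6 promoters in hand and in 9.35% of 32851 promoters of the same length. The overlapping letters GAGGAA, searched on both strands, occur in 5 of the 6 (Elane, Prtn3, Mpo, Ctsg and Ms4a3) and in 28.3% of all. TGTGGT, the core bound by RUNX factors, is in the promoters of Ctsg and Cst7 and in 16.8% of all, AACGG, bound by MYB, in those of Elane and Prtn3 and in 17.4% of all, and TTGCNNAA, bound by C/EBP factors, in those of Ms4a3 and Cst7 and in 10.8% of all. The letters were chosen after these sequences were seen, and a match is a description, not a site.

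Barcodes with at least 500 genes, 10414 of them with a median of 5222 unique molecular identifiers (UMIs, each 1 captured transcript), were sorted by raw markers that are not members, into gates that can overlap. The Kit Cd34 gate held 111 barcodes with at least 1 UMI each of Kit, the stem cell factor receptor, and Cd34, a progenitor surface protein. The Fcnb gate held 609 barcodes with at least 5 UMIs of ficolin B per 10000, the Ltf gate 1413 with at least 20 UMIs of lactoferrin per 10000 and less Fcnb than that, and the Cxcr2 Retnlg gate 707 with at least 1 UMI of the chemokine receptor Cxcr2, at least 2 of Retnlg and less Ltf. The Ccr2 gate held 855 barcodes with a UMI of the monocyte chemokine receptor Ccr2 and under 100 of S100a8 per 10000. The Cd79a gate, 3125 barcodes with at least 3 UMIs of a B cell receptor subunit, and the Col2a1 gate, 365 barcodes with at least 10 UMIs of the cartilage collagen, hold cells that should lack these genes and were used to show what free RNA gives. A few of their barcodes held many UMIs of the set, so that their sums are not free RNA alone. Median depth ran from 3033 UMIs in the Cxcr2 Retnlg gate to 21599 in the Kit Cd34 gate, and 275 barcodes passed more than 1 gate. Marker lists without the gate genes followed the gates: the stem and progenitor list was highest in the Kit Cd34 gate at 961.4 UMIs per 1000000 (CPM) and next at 766.8 in the Cd79a gate, the summed B line list stood at 4141 CPM in the Cd79a gate and at 411.5 or less in the others, the chondrocyte list at 19043 in the Col2a1 gate and at 1884 or less, the neutrophil list at 210692 in the Fcnb and 233152 in the Ltf gate, the late neutrophil list was highest in the Cxcr2 Retnlg gate at 14388, and the monocyte list was highest in the Ccr2 gate at 3884 and next at 3184 in the Col2a1 gate. The Ccr2 gate also held 5407 CPM of the late neutrophil list, and the Cd79a gate 14256 of the neutrophil list. The part of those cells in the levels below was not tested.

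Summed over a gate, the 7 genes together were as high in the Kit Cd34 gate, at 12055 CPM, as in the Fcnb gate, at 12536 CPM. In the Ltf gate they summed to 339.2 CPM, lower than in the Fcnb gate (log2 ratio of the Fcnb over the Ltf gate 5.21, 95% interval 5.16 to 5.25). That log2 ratio was 6.10 with each cell weighing the same, 5.86 without called doublets and 5.88 with doubled gate thresholds. The sum in the Ltf gate lies under those of the Cd79a and Col2a1 gates, and 15 of its 1413 barcodes held 76.4% of it. The ratio is therefore not read as a size. The intervals here reflect counting error alone and say nothing of differences among cells or mice. The sum was 3496 CPM in the Ccr2 gate, 1458 in the Cxcr2 Retnlg gate, 910.2 in the Cd79a gate and 426.2 in the Col2a1 gate. The plot of levels by gate shows every gene lower in the Ltf than in the Fcnb gate.

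**Figure D1:**
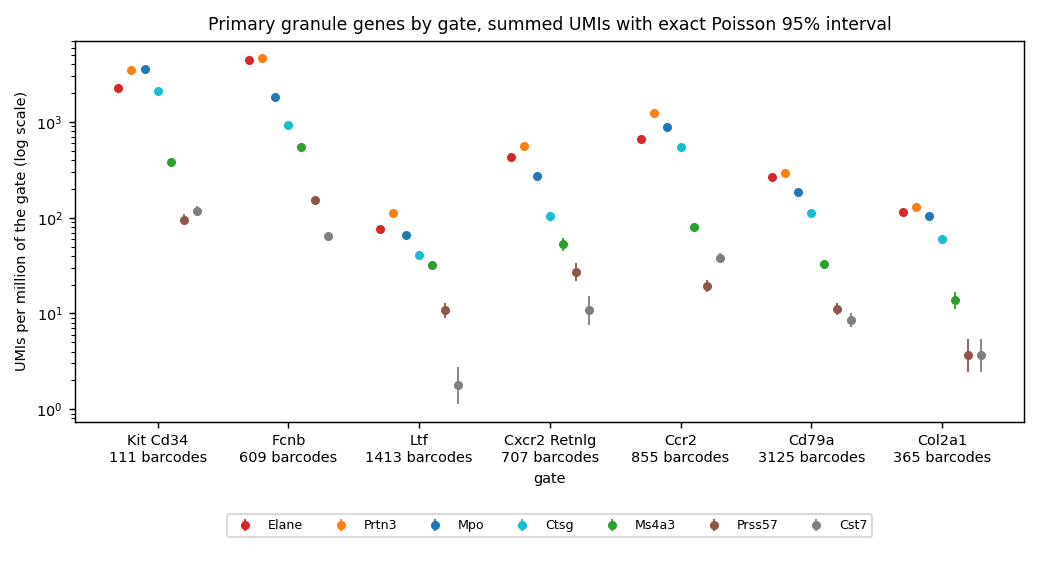
Level of each gene in each gate, in CPM of the gate's summed UMIs on a log axis, with exact Poisson 95% intervals as bars (many are smaller than the points). All 7 genes stand high in the Kit Cd34 and Fcnb gates, and in the Ltf gate the levels run from 1.81 CPM for Cst7 to 111.3 for Prtn3.

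The UMIs lay in few barcodes. In 663 barcodes with at least 10 UMIs of the 7 genes lay 98.1% of all their UMIs, and in 406 barcodes with at least 100 lay 95.2%. Of those 406, 189 were in the Fcnb gate, 71 in the Ccr2 gate, 53 in the Kit Cd34 gate, 26 in the Cd79a gate, 9 in the Cxcr2 Retnlg gate, 6 in the Ltf gate and 5 in the Col2a1 gate, and 102 were in no gate. Of the 102 outside the gates, 86 held a UMI of Kit or Fcnb. A sum over a gate in which most cells lack the genes thus rests on a few barcodes: 41 of 3125 held 92.98% of the UMIs of the Cd79a gate, 6 of 365 held 93.4% in the Col2a1 gate, 13 of 707 held 93.6% in the Cxcr2 Retnlg gate and 15 of 1413 held 76.4% in the Ltf gate. Of the 41 in the Cd79a gate, 31 passed another gate, 27 held a UMI of Kit or Fcnb and 5 were called doublets. Of the 13 in the Cxcr2 Retnlg gate, 10 passed another gate, and every one of the 13 held a UMI of Kit or Fcnb. The plot of summed UMIs per barcode shows the separation.

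**Figure D2:**
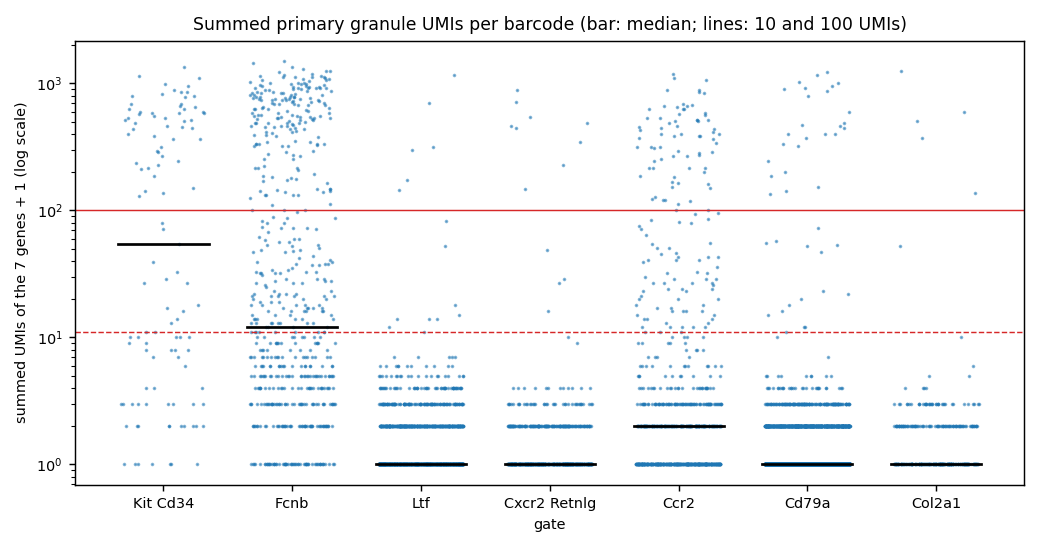
Summed UMIs of the 7 genes plus 1 in each barcode (points) by gate, on a log axis, with the median as a black bar and red lines at 10 (dashed) and 100 UMIs. The median was 53 UMIs in the Kit Cd34 gate, 11 in the Fcnb gate, 1 in the Ccr2 gate and 0 in the other 4 gates, with a thin scatter of barcodes above 100 UMIs in each.

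Barcodes high in the set were chosen by its own sum, so that the number of members they held is a description. Of the 406 barcodes with at least 100 UMIs, 400 (98.5%) held at least 5 of the 7 genes and 325 (80.0%) held all 7. Across all 10414 barcodes, 6348 held no UMI of any member. On log2(1 + UMIs per 10000), Pearson's r over the 10414 barcodes, which share their library and differ in depth, ran from 0.58 for Cst7 with Prss57 to 0.83 for Elane with Prtn3. Among 8896 genes with at least 500 UMIs, the 3 most like each member were other members in every case. The genes outside the set that came closest were Nkg7, a granule membrane protein of cytotoxic lymphocytes (r 0.59 with Elane, 0.61 with Cst7), and Gatm, a creatine synthesis enzyme (r 0.61 with Ms4a3). As correlations in sparse counts of 1 pool they are descriptions.

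From the Kit Cd34 to the Fcnb gate the genes moved apart in direction while their sum differed little. Mpo stood at 3605 CPM in the Kit Cd34 gate (95% interval 3530 to 3681) and at 1812 in the Fcnb gate (1785 to 1839), a level 1.99-fold higher in the Kit Cd34 gate. Ctsg stood at 2094 and 928.7 CPM, 2.25-fold higher, and Cst7 at 116.8 and 64.2 CPM, 1.82-fold higher in the Kit Cd34 gate. Against the Fcnb barcodes with little Ltf the direction of all 3 was the other way, with Mpo at 5328 CPM, Ctsg at 2751 and Cst7 at 175.5 there. Elane stood at 2259 and 4420 CPM, 1.96-fold higher in the Fcnb gate, and Prtn3 at 3501 and 4616, 1.32-fold higher. Ms4a3, at 383.8 and 542.3 CPM, and Prss57, at 95.03 and 153.0, were 1.41-fold and 1.61-fold higher in the Fcnb gate. None of the 7 passed 4-fold in either direction. Of the 8603 genes with at least 50 UMIs in the 2 gates together, 2.82% were at least 4-fold higher and 8.65% at least 4-fold lower in the Fcnb gate, and the median gene was 0.48 lower on the log2 scale. The directions of the single genes were kept in all 8 alternative settings tried, but that of the sum was not: its log2 ratio of -0.06 became 0.24 when mitochondrial and ribosomal protein genes were left out of the total.

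The Kit Cd34 gate was itself mixed. In 53 of its 111 barcodes lay at least 100 UMIs of the set, and 7 held none. No barcode of it reached the Fcnb threshold, and 7 held any Fcnb UMI. In the 43 barcodes with under 10 UMIs of the set, Prtn3 made up 52.4% of the 143 UMIs (95% interval 43.9 to 60.9) and Mpo 25.2%, while Ms4a3 made up 0.70%. In the Cd79a gate such barcodes held 29.2% Prtn3, 24.5% Mpo and 5.19% Ms4a3. The 28 barcodes also in the Ccr2 gate stood at 4205 CPM of Prtn3 and the other 83 at 3139, and a Prtn3 UMI was seen in 28 of the 28.

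Within a finer series of groups, the highest levels of 6 of the genes were in the barcodes of the Fcnb gate with little Ltf. The series set barcodes in order from Kit and Cd34, through Kit without Cd34 and no gate, to Fcnb with rising Ltf. Elane stood at 2259 CPM in the 111 Kit Cd34 barcodes, at 6796 in 146 barcodes with Kit but without Cd34 and in no gate, and at 12633 in 186 barcodes of the Fcnb gate with under 5 Ltf UMIs per 10000. In the last of these groups a UMI of Elane was in 94.1% of barcodes, and the median barcode held 12415 CPM. Over the same groups Prtn3 stood at 3501, 8379 and 12827 CPM, Ms4a3 at 383.8, 845.8 and 1212 and Prss57 at 95.03, 208.8 and 368.2, each higher in summed level from group to group. The share of barcodes with a UMI did not follow this over the first step: Prtn3 was seen in 85.6%, 48.6% and 93.0% of the 3 groups, and at 1000 UMIs a barcode in 55.3%, 39.1% and 92.6%. In the middle group 58 of the 146 barcodes held 99.88% of the UMIs of the set, and the median barcode held 2. Mpo stood at 3605, 3553 and 5328 CPM and Cst7 at 116.8, 152.7 and 175.5. Ctsg stood at 2094, 3321 and 2751 CPM. The middle group leaves out barcodes of the gates, and over all 324 barcodes with Kit but without Cd34 and with little Fcnb Ctsg stood at 2043 CPM, Mpo at 2183, Elane at 4061 and Cst7 at 94.5. With those 324 as the middle group, Ctsg too was highest in the Fcnb barcodes with little Ltf, so that its place in this order rests on which barcodes are taken. The basophil and mast cell list stood at 850.6 CPM in the 146 barcodes, and without the 6 of them with at least 2 UMIs of Mcpt8 or Cpa3 Ctsg stood at 3240 CPM. Together the 7 genes made up 35295 CPM in the Fcnb barcodes with little Ltf. A group added after the data were seen, 143 barcodes with 1 to 5 Fcnb UMIs per 10000 and under 5 of Ltf, stood at 29590 CPM for the set, with Ctsg at 3668 CPM. Cst7 stood there at 174.6 CPM (95% interval 155.4 to 195.5), not distinguishable from its 175.5 in the Fcnb barcodes with little Ltf.

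Within the Fcnb gate the genes were lower in barcodes with more Ltf, and by unequal amounts. In 38 barcodes with 5 to 20 Ltf UMIs per 10000, Ctsg stood at 227.5 CPM, 12.1-fold below the barcodes with less Ltf, and Mpo at 683.9, 7.79-fold below. Elane stood at 2824 CPM, 4.47-fold below, and Prtn3 at 3557, 3.61-fold below. Ms4a3, at 565.9 CPM, and Prss57, at 164.3, were 2.14-fold and 2.24-fold below, with 95% intervals on the log2 scale of 0.95 to 1.25 and 0.89 to 1.45, which lie under those of Ctsg (3.37 to 3.83) and Mpo (2.83 to 3.09). So Ctsg and Mpo were already far lower in barcodes that still held much of the elastase and proteinase 3 transcripts, and Ms4a3 and Prss57 were the least reduced. 1 barcode held 35.8% of the Ctsg UMIs of these 38, and without its Ctsg UMIs the level was 146.1 CPM. Cst7 stood at 47.8 CPM, 3.67-fold below.

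In the 385 barcodes of the gate with at least 20 Ltf UMIs per 10000, Mpo stood at 50.2 CPM, Ctsg at 29.8, Elane at 179.9, Prtn3 at 311.4, Ms4a3 at 177.9, Prss57 at 35.4 and Cst7 at 6.10. Ms4a3 and Prss57 were 6.81-fold and 10.4-fold below the 186 barcodes with little Ltf. Elane lay under its level in the Cd79a gate (263.9 CPM) and Prtn3 near its own there (295.4 CPM), so that no size of fold is given for them. 1 barcode held 24.7% of the Elane UMIs of the 385, and without its Elane UMIs the level was 135.6 CPM. All 7 were at least 4-fold lower, against 3.27% of 7483 genes. 1 barcode held 51.4% of the Mpo UMIs of the 385, and without its Mpo UMIs the level was 24.4 CPM. An Ms4a3 UMI was still seen in 70.9% of the 385 barcodes, while an Mpo UMI was seen in 20.8%. At an equal depth of 1000 UMIs the shares were 13.8% (95% interval 10.5 to 17.6) and 2.42% (1.07 to 4.39), against 60.6% and 87.0% in the barcodes with little Ltf and 0.85% and 3.48% in the Cd79a gate. At that depth Elane was seen in 8.07% (5.54 to 11.2) of the 385 and Prtn3 in 15.8% (12.3 to 19.9), above the 3.30% and 3.95% of the Cd79a gate, as was Prss57 at 2.93% (1.44 to 5.06) against 0.37%. For Mpo, Ctsg and Cst7 the intervals overlapped those of the Cd79a gate, so that their folds are not given as sizes. The plot of the finer series shows the lines of Mpo and Ctsg crossing that of Ms4a3.

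**Figure D3:**
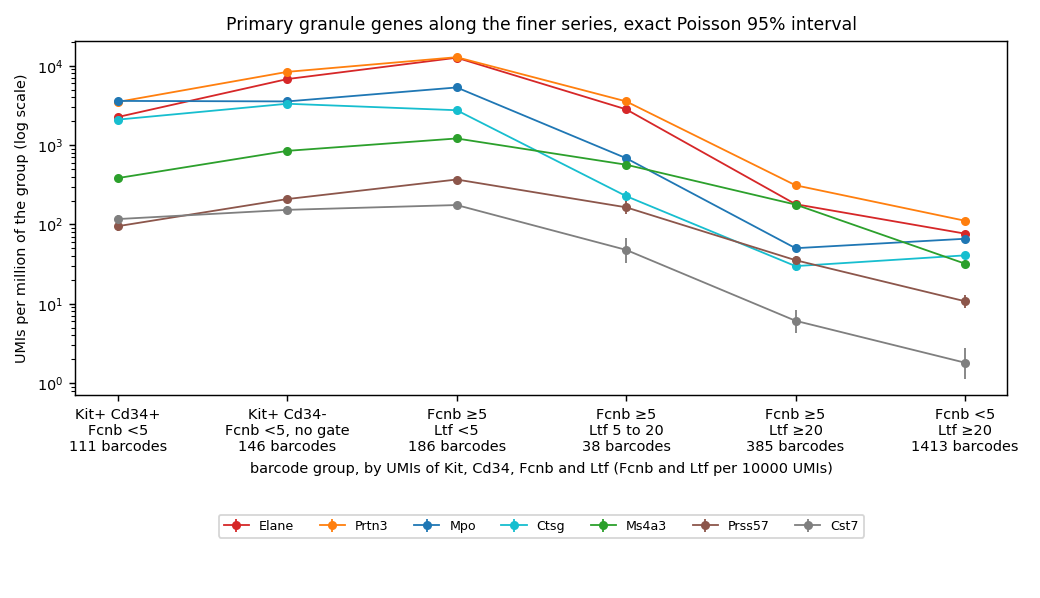
Level of each gene, in CPM on a log axis with exact Poisson 95% intervals, in 6 groups of barcodes ordered by Kit, Cd34, Fcnb and Ltf. The lines of 6 genes peak in the Fcnb barcodes with little Ltf and that of Ctsg 1 group earlier. From there to the Fcnb barcodes with much Ltf, Mpo stands at 50.2 and Ctsg at 29.8 CPM, and in the last group at 66.0 and 40.7.

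Between the Fcnb and Ltf gates as a whole all 7 genes were lower in the Ltf gate. Elane stood at 4420 and 76.6 CPM, Prtn3 at 4616 and 111.3, Mpo at 1812 and 66.0, Ctsg at 928.7 and 40.7, and Cst7 at 64.2 and 1.81, the last on 21 UMIs. Ms4a3 stood at 542.3 and 32.0 CPM and Prss57 at 153.0 and 10.8. Of 9213 genes tested, 1.69% were at least 4-fold lower in the Ltf gate, and the median gene was 0.12 lower on the log2 scale. The Ltf-gate level of each of the 7 lies under its level in the Cd79a gate, where Ms4a3 stood at 33.03 CPM and Prss57 at 11.1, and those of all but Ms4a3 and Prss57 also under the Col2a1 gate. Those sums rest on few barcodes, and without the highest barcode of each gate Prtn3 stood at 80.3 CPM in the Ltf and 73.3 in the Col2a1 gate. No size of fold is therefore given for the single genes. 1 barcode held 49.9% of the Ctsg UMIs of the Ltf gate, and without them Ctsg stood at 20.4 CPM there.

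What is left in the Ltf gate was read against free RNA. At 1000 UMIs a barcode, Elane was seen in 1.82% of Ltf barcodes (95% interval 1.21 to 2.69), 3.30% of Cd79a barcodes and 2.08% of Col2a1 barcodes. Prtn3, Mpo and Ctsg were likewise no more often seen in the Ltf gate, at 2.75%, 2.04% and 1.20%, than in the Cd79a gate, at 3.95%, 3.48% and 1.83%. In the Col2a1 gate Prtn3, Mpo and Ctsg were seen in 2.33% (1.13 to 4.63), 2.05% and 1.36%, so that Prtn3 was a little lower there than in the Ltf gate (1.97 to 3.76). None of the 4 shares of the Ltf gate is above background beyond counting error, and they are not read as expression. Ms4a3 was seen in 1.87% (1.21 to 2.69) of Ltf barcodes, 0.85% (0.57 to 1.26) of Cd79a barcodes and 0.68% (0.07 to 1.96) of Col2a1 barcodes, so that the intervals overlap. At 2000 UMIs they did not for the Cd79a gate, with Ms4a3 at 3.46% (2.55 to 4.54) in the Ltf and 1.54% (1.11 to 2.06) in the Cd79a gate, but still did for the Col2a1 gate, at 1.01% (0.30 to 2.81). Without thinning, at median depths of 6522, 3124 and 16838 UMIs, it was seen in 12.7% of Ltf, 2.72% of Cd79a and 4.38% of Col2a1 barcodes. Prss57, at 0.86% in the Ltf, 0.37% in the Cd79a and 0.20% in the Col2a1 gate after thinning, had the same order, also with overlapping intervals. At 2000 UMIs Prss57 was seen in 1.74% (1.11 to 2.55) of Ltf and 0.66% (0.41 to 1.06) of Cd79a barcodes, which do not overlap. Its interval in the Col2a1 gate, at 0.41% (0.007 to 1.53), still overlapped that of the Ltf gate. Cst7 was seen in 0.09% of Ltf barcodes.

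**Figure D4:**
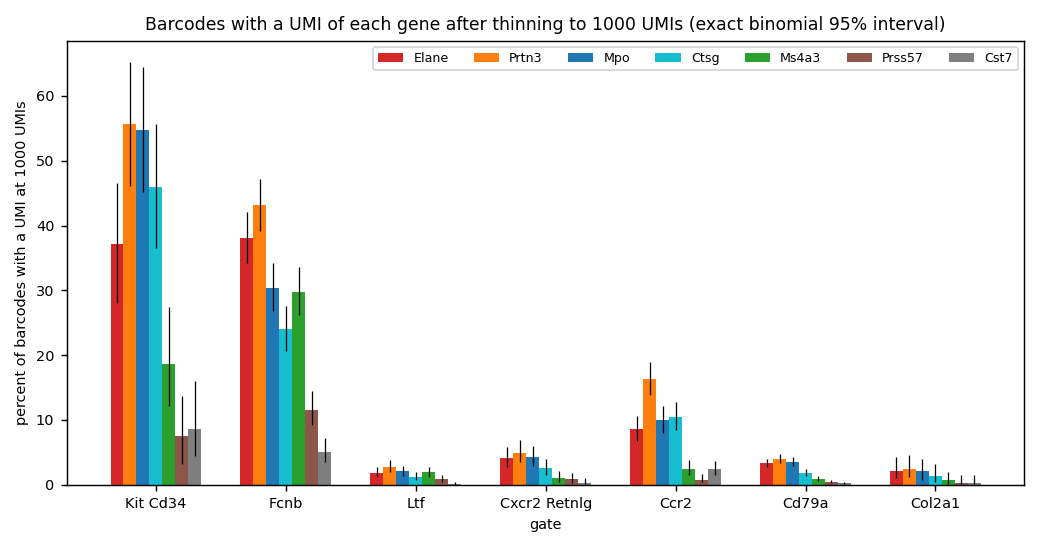
Percent of barcodes with a UMI of each gene after every barcode was thinned to 1000 UMIs (mean of 100 draws), with exact binomial 95% intervals, by gate. The Kit Cd34 and Fcnb gates stand high, the Ccr2 gate lower with Prtn3 at 16.3%, and the Ltf and Cxcr2 Retnlg gates near the Cd79a and Col2a1 gates.

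The mixture of the 7 genes differed too. It was read in barcodes with under 10 UMIs of the set, a choice that uses the set's own sum. In the Cd79a gate Ms4a3 made up 5.19% of 1137 such UMIs (95% interval 3.97 to 6.64) and in the Col2a1 gate 4.85% of 206 (2.35 to 8.75). In the Ltf gate it made up 27.0% of 931 UMIs (24.1 to 29.9), and in the Fcnb gate 44.8% of 823. Over all barcodes of a gate the contrast was smaller, with Ms4a3 at 9.44% in the Ltf, 4.33% in the Fcnb, 3.63% in the Cd79a and 3.2% in the Col2a1 gate. In the barcodes with under 10 UMIs Prss57 made up 11.7% in the Ltf gate, 9.72% in the Fcnb gate, 4.22% in the Cd79a gate and 1.94% in the Col2a1 gate. Ms4a3 and Prss57 thus made up more of the remaining UMIs in barcodes with Ltf than in either gate of free RNA, and the part of free RNA in that was not tested. In the Cxcr2 Retnlg gate, highest in late neutrophil genes, Ms4a3 made up 3.03% of 297 UMIs and Elane, Prtn3 and Mpo 20.9%, 31.3% and 23.6%, against 22.2%, 29.2% and 24.5% in the Cd79a gate.

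**Figure D5:**
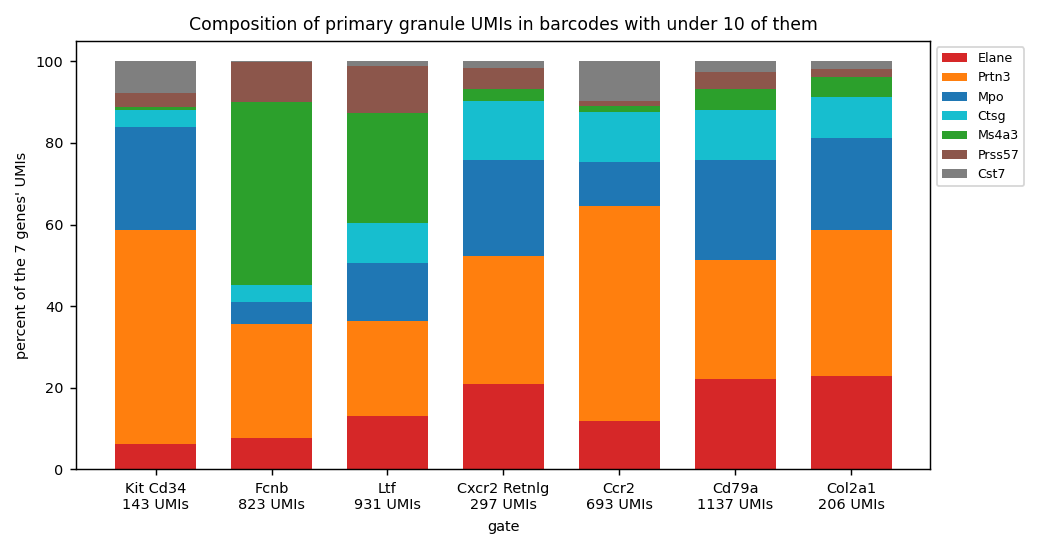
Share of each gene in the UMIs of the 7 genes, in percent, over barcodes with under 10 of these UMIs, by gate, with the number of UMIs under each bar. Ms4a3 takes 44.8% in the Fcnb and 27.0% in the Ltf gate and 3.03% to 5.19% in the Cxcr2 Retnlg, Cd79a and Col2a1 gates, Prtn3 takes 52.5% in the Ccr2 gate, and Cst7 takes 9.67% there.

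The Cxcr2 Retnlg gate stood above the Ltf gate in summed level over the 7 genes (log2 ratio of the Ltf over the Cxcr2 Retnlg gate -2.10). For 4 of the 7 (Elane, Prtn3, Mpo and Cst7) the level passed 4-fold, against 2.66% of 8659 genes. The Ltf-gate levels of these 4 lie under those of the Cd79a and Col2a1 gates, so that no size of fold is given. Cst7 rests on 35 and 21 UMIs, and the interval of the Mpo log2 ratio, -2.18 to -1.89, holds the 4-fold limit. These sums rest on the 13 barcodes named above, and in barcodes of exactly 1 gate the log2 ratio of the sum was -0.99. At 1000 UMIs Elane was seen in 4.12% of Cxcr2 Retnlg barcodes (95% interval 2.77 to 5.85) and in 3.30% of Cd79a barcodes (2.70 to 3.99), and Ms4a3 in 1.05% and 0.85%. Those shares were thus not distinguishable from free RNA at this depth. For Ms4a3 that log2 ratio was -0.72 and became 1.27 in barcodes of exactly 1 gate, 0.53 with each cell weighing the same and 1.01 with doubled thresholds, so that its direction is not settled.

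The gate of monocyte genes held some of the same transcripts. In the Ccr2 gate the set summed to 3496 CPM, 3.84-fold above the Cd79a gate (log2 ratio 1.94, 95% interval 1.91 to 1.97). In barcodes of exactly 1 gate that log2 ratio was 2.99. In 140 of the 855 Ccr2 barcodes lay 97.9% of the sum. Of the 140, 40 passed another gate and 71 held a UMI of Kit or Fcnb. The Cd79a sum likewise lay mostly in 41 barcodes, so that folds over that gate are not folds over free RNA alone. The Ccr2 gate also held the most of the basophil and mast cell list of the 7 gates, at 692.1 CPM against 585.0 in the Kit Cd34 gate and 68.9 in the Cd79a gate. Without its 28 barcodes with at least 2 UMIs of Mcpt8 or Cpa3, left out after the data were seen, the set summed to 3231 CPM, with Ctsg at 483.0 and Cst7 at 34.0. Prtn3 stood at 1253 CPM, 4.24-fold above the Cd79a gate, Mpo at 896.2, Ctsg at 545.7 and Cst7 at 38.2, 4.81-fold, 4.87-fold and 4.47-fold above, while Elane at 664.4, Ms4a3 at 79.4 and Prss57 at 19.3 were 2.52-fold, 2.40-fold and 1.74-fold above. At 1000 UMIs, Prtn3 was seen in 16.3% (13.9 to 18.9) of Ccr2 barcodes and 3.95% of Cd79a barcodes, Ctsg in 10.4% and 1.83%, and Cst7 in 2.33% and 0.22%. Prss57, at 0.78% and 0.37%, had overlapping intervals. In the 715 Ccr2 barcodes with under 10 UMIs of the set, Prtn3 made up 52.5% of 693 UMIs (95% interval 48.7 to 56.3) against 29.2% in the Cd79a gate, and Cst7 9.67% against 2.55%, while Ms4a3 made up 1.59%. Over all barcodes the 2 gates were close, with Prtn3 at 35.8% in the Ccr2 and 32.5% in the Cd79a gate and Cst7 at 1.09% and 0.94%. The 56 Ccr2 barcodes that also held Kit were higher in every member than the other 799, by 3.41-fold for Cst7 to 8.63-fold for Ms4a3. Proteinase 3 was thus the member most often seen in the Ccr2 gate, and Prss57 the least.

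The members were also looked for in other lineages, by markers added after the data were seen. In 113 barcodes with at least 2 UMIs of Mcpt8 or Cpa3, proteases of basophils and mast cells, Ctsg stood at 2163 CPM and was seen in 65.5% of barcodes, and Cst7 at 160.3 CPM and in 64.6%. Mpo stood there at 2652 CPM, Prtn3 at 2000 and Elane at 1152, and 24 of the 113 were also Kit Cd34 barcodes. In the 57 of them in no gate, 1 barcode held 404 of the 417 Elane UMIs and 1 held 604 of the 654 Prtn3 UMIs, and without these UMIs Elane stood at 28.5 CPM and Prtn3 at 109.7, while Ctsg without its highest barcode stood at 2281. In 160 barcodes with Cd3e or Ncr1, markers of T and natural killer cells, Cst7 stood at 43.4 CPM (95% interval 31.9 to 57.8), above its 8.54 CPM in the Cd79a gate, and made up 37.9% of the UMIs of the set in barcodes with under 10. In those lymphoid barcodes Mpo stood at 35.1 CPM (24.9 to 48.2), an interval that overlaps that of Cst7, with 17 of its 38 UMIs in 1 barcode, while Prtn3 stood at 23.1, Elane at 19.4 and Ms4a3 at 3.70. Against their own levels in the Cd79a gate, Mpo, Prtn3, Elane and Ms4a3 were lower there and Cst7 higher. In 98 barcodes with the macrophage gene C1qa, 1 barcode held 94.96% of the Elane UMIs, and in 179 with Siglech, a marker of plasmacytoid dendritic cells, 1 held 97.2%.

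Genes that act with the granule proteases were described from 6 lists. Of the 47 genes listed (activation and packing, protease inhibitors, transcription factors, other azurophil or lysosomal proteins, secondary and tertiary granule proteins, cell cycle), 45 could be tested between the Fcnb and Ltf gates, and 0 were at least 4-fold lower in the Ltf gate, against 1.69% of all genes. Ctsc, which encodes cathepsin C, stood at 70.8 CPM in the Kit Cd34 gate, 13.3 in the Fcnb gate and 295.7 in the Ccr2 gate, so that the activating protease was lowest among these 3 where Elane was highest. Srgn, the proteoglycan that packs the granule, stood at 3854 CPM in the Fcnb barcodes with little Ltf and at 595.1 in those with much, and was, with the transcription factor Cebpa (14.8 and 2.71 CPM), one of 2 listed genes at least 4-fold lower there, against 3.27% of all genes. Cebpe, the factor of the secondary granule stage, stood at 37.0 CPM in the Kit Cd34 gate, 422.2 in the Fcnb and 186.3 in the Ltf gate. Of the 10 secondary and tertiary granule genes, 8 were at least 4-fold higher in the Fcnb than in the Kit Cd34 gate, against 2.82% of all genes, Ltf and Camp among them. Between the Fcnb and Ltf gates the inhibitor Slpi was at least 4-fold higher in the Ltf gate (234.2 and 970.2 CPM), and Serpinb1a, which inhibits elastase, proteinase 3 and cathepsin G, stood at 965.3 and 420.0 CPM. Lyz2, the lysozyme found in several granule types, stood at 6837 and 9712 CPM.

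Genes beside the members on the chromosome were read in the same gates. Of 17 other genes within 50 kb of Elane, Prtn3 or Prss57, 7 had at least 50 UMIs in the Fcnb and Ltf gates, and 1 was at least 4-fold lower in the Ltf gate, against 1.69% of all genes. That gene was Plppr3, which overlaps Prtn3, at 10.7 CPM in the Fcnb gate and 0.69 in the Ltf gate. R3hdm4, on the far side of Cfd and Med16 from Elane, was higher in the Ltf gate, at 84.1 and 183.2 CPM. Cfd, which encodes complement factor D and lies beside Elane, had 0 UMIs in the Fcnb gate, which allows up to 0.306 CPM. Around Ctsg, of 24 other genes within 300 kb, 15 had under 10 UMIs in all. Mcpt8 stood at 1.74 CPM and Gzmb, granzyme B of lymphocytes, at 0.51 CPM in the Fcnb gate, where Ctsg stood at 928.7, while in the barcodes with Mcpt8 or Cpa3, chosen in part on Mcpt8 itself, Gzmb stood at 836.2.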

How the data were processed

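The authors sequenced 3' single-cell libraries and deposited raw counts of UMIs per gene and barcode, counted on mm10, with Cell Ranger 3.1.0 named in the file headers. The mouse matrix holds 91463572 UMIs over 12564 barcodes. Other deposited files were not used here. Barcodes with at least 500 genes were kept, and UMIs were summed per gate and divided by the gate's total (CPM) with numpy 2.4.6 and scipy 1.17.1. Levels have exact Poisson, ratios exact conditional and shares exact Clopper-Pearson 95% intervals, which cover counting error only. Shares were also computed after thinning to 1000 UMIs, with 2000 as an alternative, as the mean of 100 draws. Across genes with at least 50 UMIs in both gates together, ratios used 0.5 added to each count, a gene was called past 4-fold, and the code was tested on simulated data. Named genes are the 7 members, up to 4 genes of each list, neighbours, and the 3 genes most like each member. Members, gates and lists were chosen with earlier results of these data known. Scrublet (scanpy 1.11.5, with 6% expected) marked 446 barcodes (4.28%) as doublets, which were kept and left out in an alternative. Of the matrix's gene identifiers, 30934 were found in GENCODE M21, and promoters are from RefSeq.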

Additional observations from a re-analysis of the deposited data

How the results depend on the processing

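Alternatives were at least 1600 genes, at most 10% mitochondrial UMIs, barcodes of exactly 1 gate, each cell weighing the same, called doublets left out, doubled gate thresholds, leaving out the barcode that holds most, and a total without mitochondrial and ribosomal protein genes. In that order, skipping those that moved it by less than counting error, the summed log2 ratio of the Fcnb over the Ltf gate (5.21) was 4.81, 5.63, 6.10, 5.86, 5.88, 5.69 and 5.35. For the Kit Cd34 over the Fcnb gate (-0.06) it was 0.01 in barcodes of exactly 1 gate, -0.24 with each cell weighing the same, -0.01 with doubled thresholds, -0.09 without the barcode that holds most and 0.24 with the reduced total, so that its sign is not stable. For the Ltf over the Cxcr2 Retnlg gate (-2.10) it was -2.93, -0.99, -1.42, -2.99, -1.31 and -2.31. For the Ccr2 over the Cd79a gate (1.94) it was 1.47, 2.99, 2.46, 2.02, 2.58 and 2.00. For the Cxcr2 Retnlg over the Cd79a gate (0.68) it was 1.41, 0.62, 0.59, 0.97, 0.11, 0.50 and 0.43. Of single genes, Ms4a3 reversed between the Ltf and Cxcr2 Retnlg gates (-0.72 to 1.27 in barcodes of exactly 1 gate, 0.53 with each cell weighing the same, 1.01 with doubled thresholds), and between the Cxcr2 Retnlg and Cd79a gates with doubled thresholds (0.67 to -0.32, 95% interval of the latter -1.01 to 0.31). The cause was not tested. With at least 20 and at least 200 UMIs, the genes past 4-fold were 1339 and 222 for those lower in the Fcnb than in the Kit Cd34 gate (744), 347 and 116 for those higher in the Cxcr2 Retnlg than in the Ltf gate (230), and 431 and 83 for those lower with much Ltf within the Fcnb gate (245), and with at least 200 UMIs 91 were lower in the Ltf than in the Fcnb gate (156). No paired analysis was possible because the 8 labelled samples form 1 group with no mark on the barcodes. The pool gives no spread between mice, and depth limits shares under about 1% after thinning.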
